A study of Mus musculus with 4 samples.

Results

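The nonclassical MHC class I genes H2-Q4, H2-Q6, H2-Q7, H2-T22, H2-T23, H2-M2 and H2-M3 were followed across the cell classes of tumour-bearing mouse lung. They are 7 of the 31053 genes in the deposited single-cell count tables and were chosen by name, not by their values. Each of the 7 had counts in all 4 libraries. The mice were of the Balb/c strain and carried lung tumours seeded through the blood with 4T1, a breast carcinoma line of the same strain, and CD45 bead-selected lung leukocytes were taken 14 days later. In 2 libraries, labelled PD-L1 KO, the injected cells lacked PD-L1, which restrains T cells through PD-1. In the other 2, labelled WT, they were unmodified 4T1 cells. The deletion was in the injected carcinoma cells and not in the host leukocytes measured here, so it could not be checked in the cells counted below. The labels do not say whether each library came from a separate mouse, so p-values cover no more than library-to-library spread, part or all of which may be technical. The names of the deposited files carry the opposite condition to the sample labels in all 4 libraries. The labels were used throughout, so every direction below rests on them.

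Class I molecules are cell-surface glycoproteins made of a heavy chain and beta-2-microglobulin. The classical ones, H2-K, H2-D and H2-L, show peptides from inside the cell to CD8 T cells and differ greatly between mice. The nonclassical, or class Ib, ones vary little, sit in the Q, T and M regions of the same locus, and mostly have narrower tasks. H2-T23 encodes the heavy chain of Qa-1, which holds leader peptides of other class I molecules and is read by the CD94 and NKG2 receptors of NK and CD8 T cells. H2-T22 is bound directly by a subset of gamma-delta T cell receptors. H2-Q6 and H2-Q7 encode Qa-2, a class I molecule held in the membrane by a lipid anchor, and H2-Q4 encodes a secreted class Ib protein. H2-M3 presents peptides that begin with formyl-methionine, as bacterial and mitochondrial proteins do. Interferons and the transactivator NLRC5 are known to raise transcription of many class I genes.

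All 7 genes lie on chromosome 17 (GRCm38, GENCODE annotation M21). H2-Q4 spans 35379617 to 35385290, H2-Q6 spans 35424850 to 35430055 and H2-Q7 spans 35439155 to 35443773, all on the plus strand. H2-T23 (36029773 to 36032855) and H2-T22 (36037128 to 36042747) are neighbours on the minus strand. H2-M3 (37270220 to 37274484, plus strand) and H2-M2 (37480851 to 37483552, minus strand) lie farther along. The reads were mapped to mm10, which carries the H-2b haplotype of C57BL/6, whereas Balb/c mice are H-2d, so reads may be counted for the most similar reference gene. In the last 500 bases of the longest coding transcript, 106 of 410 windows of 91 bases of H2-T22, the length of the second read, also occurred in the H2-T10 transcript of the same annotation. H2-T10 had no entry of its own in the count tables. Of the H2-Q4, H2-Q6 and H2-T23 windows, 38, 43 and 53 of 410 occurred in transcripts of other genes, and of those of H2-Q7, H2-M2 and H2-M3 none of 410 did. Those other genes were led by Gm43321, Olfr1238 and Olfr552 for H2-Q4 and by Cd59b, Efr3a and Gm28625 for H2-Q6. For H2-T23 they were led by Rab33b, Hook2 and H2-T-ps. These counts are for the reference alleles. Because the mice were of another haplotype, every member of the Q and T regions remains uncertain as to its exact gene. The same limit holds for the classical heavy chain genes H2-K1 and H2-D1 named below.

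The promoters of 5 members are shown because the 3 Q genes are laid out alike, H2-T23 is the member called between the groups, and H2-M2 is the most narrowly distributed member. Each is the 160 bases before the RefSeq transcription start (GRCm38.p6), 5′ to 3′ on the gene's own strand. Capitals mark matches, on either strand, to GAANNGAAA (letters of the interferon-stimulated response element), TGATGAC (letters like the cyclic-AMP-response part of the class I SXY module), CCAATCA (letters of the Y box of the same module) and GGGGATTCC (letters of the kappa-B element of class I promoters).
H2-Q4 (chr17:35379457-35379616, plus strand): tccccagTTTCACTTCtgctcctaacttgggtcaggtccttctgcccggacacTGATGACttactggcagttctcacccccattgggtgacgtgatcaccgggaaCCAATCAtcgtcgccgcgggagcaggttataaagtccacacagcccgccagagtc
H2-Q6 (chr17:35424690-35424849, plus strand): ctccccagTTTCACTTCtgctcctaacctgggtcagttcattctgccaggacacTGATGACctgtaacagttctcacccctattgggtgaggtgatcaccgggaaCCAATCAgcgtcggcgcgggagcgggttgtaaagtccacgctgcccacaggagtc
H2-Q7 (chr17:35438995-35439154, plus strand): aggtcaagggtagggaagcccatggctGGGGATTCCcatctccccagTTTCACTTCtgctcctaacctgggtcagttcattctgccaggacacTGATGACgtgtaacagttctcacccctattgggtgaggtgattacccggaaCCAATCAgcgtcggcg
H2-T23 (chr17:36032702-36032861, minus strand): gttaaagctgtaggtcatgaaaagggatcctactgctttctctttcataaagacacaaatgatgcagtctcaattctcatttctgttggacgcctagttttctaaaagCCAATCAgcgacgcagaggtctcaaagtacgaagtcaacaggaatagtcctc
H2-M2 (chr17:37483555-37483714, minus strand): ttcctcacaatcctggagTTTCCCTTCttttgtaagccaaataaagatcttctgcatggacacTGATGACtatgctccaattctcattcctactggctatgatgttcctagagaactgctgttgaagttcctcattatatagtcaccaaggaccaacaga
Over windows of 300 bases, 250 before and 50 after the start, GAANNGAAA occurred in 5 of the 7 members (H2-Q4, H2-Q6, H2-Q7, H2-M2 and H2-M3) and in 7.52% of 32851 mouse promoters. TGATGAC occurred in 6 of 7, all but H2-T23, and in 3.23% of promoters. CCAATCA occurred in the 5 Q and T members and in 7.82% of promoters. GGGGATTCC occurred in H2-Q6 and H2-Q7 and in 0.25% of promoters; the H2-Q6 match lies before the printed stretch. The marked motifs did not overlap each other in the members. The 3 Q promoters share the other 3 motifs, while the H2-T23 window held CCAATCA alone. A match describes the letters and does not show that a factor binds.

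The libraries held 2577 and 2370 cell barcodes (PD-L1 KO 1 and 2) and 2736 and 2699 (WT 1 and 2), with 17618220 to 19635983 unique molecular identifiers (UMIs, each marking 1 captured RNA molecule). No pair of libraries shared more than 3 barcodes. After filtering, 2220 and 2019 PD-L1 KO cells and 2451 and 2364 WT cells were kept, with median UMIs per cell of 5101 and 5512 in PD-L1 KO libraries and 4395 and 4618 in WT libraries. Cells were assigned to classes by the number of marker genes they held, and "-like" marks a class so named. Cells that met the markers of more than 1 lineage made up 18.5% to 24.96% of kept cells in the 4 libraries and belong to no class below. Despite the CD45 selection, endothelial-like cells remained, 109 and 80 in PD-L1 KO libraries and 105 and 226 in WT libraries. WT 2 stands apart in that number. Levels are given as CPM, the UMIs of a gene scaled to the same total in every library and class. The kit reads 3′ ends, so levels are compared between classes and groups and not between genes.

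Each member had a different distribution over the 15 cell classes. Each class was set against the mean of the other 14 in 1 edgeR fit of 8880 genes over summed counts, with the library as a block. The markers of the classes did not include any member. Of the 105 pairs of member and class, 28 were called higher and 23 lower at an adjusted p under 0.05. Over the classes, 14.1% to 38.7% of all fitted genes were called higher and 5.26% to 29% lower. The totals alone are therefore no result about the members. H2-M2 could pass the filter on low counts only through the class where it is high, so its 2 calls, in mature dendritic-like and C1q macrophage-like cells, describe where it was found and support nothing. The plot of levels by class shows all of these values.

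Read by class, mature dendritic-like cells were called higher for H2-Q4, H2-Q6, H2-Q7 and H2-T23, where 14.3% of all fitted genes were. Their call for H2-M2 is left out of this reading. Endothelial-like cells were called higher for 5 of 7 members, against 36.8%. CD8 T-like, CD4 T-like and regulatory T-like cells were each called higher for the same 4 members, H2-Q4, H2-Q6, H2-Q7 and H2-T22, against 27.1%, 19.1% and 15.8% of all genes. Alveolar macrophage-like cells were called lower for 6 of 7 members, against 19.4% of genes, and H2-M2, the remaining member, was not detected in them. Classical monocyte-like and type 2 dendritic-like cells were each called lower for 4, against 10.9% and 5.26%. Neutrophil-like and NK-like cells were each called lower for 3, against 29% and 12.5%, and higher for 1, against 34.9% and 22.6%. Plasmacytoid dendritic-like cells were called higher for 2, against 14.9%. C1q macrophage-like cells were called higher for H2-M3, against 32.3%, with their H2-M2 call again left out. Nonclassical monocyte-like cells were called lower for 2, against 6.73%, and B-like cells for 1, against 13.8%. Type 1 dendritic-like cells, which cross-present antigen to CD8 T cells, were called in neither direction for any member, where 20.9% of genes were called higher and 9.19% lower.

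**Figure D1:**
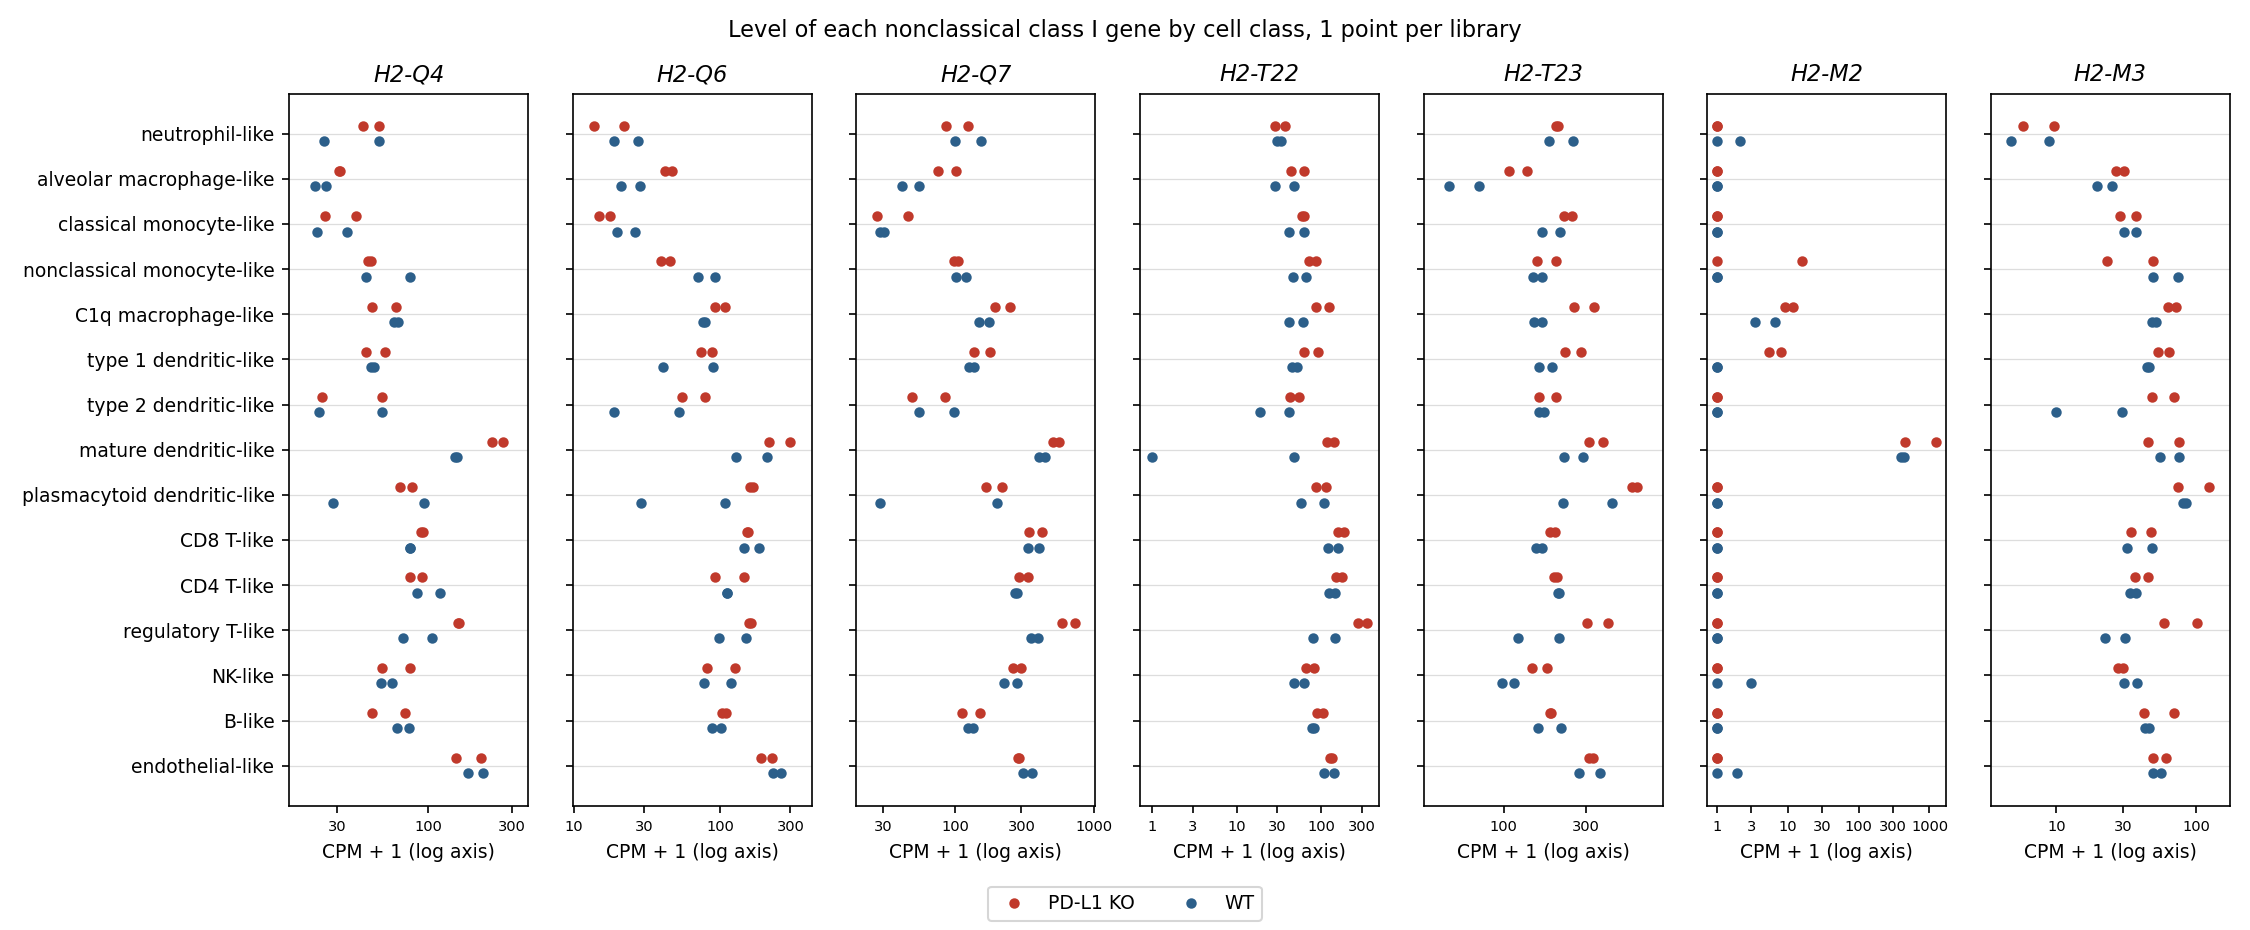
CPM + 1 (log axis) of each of the 7 genes in each of 15 cell classes, 1 point per library, with PD-L1 KO drawn above WT. H2-M2 stands at 399.6 CPM or more in mature dendritic-like cells of every library and at or near 0 elsewhere, while the 3 Q genes are low in alveolar macrophage-like and classical monocyte-like cells.

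The 3 Q genes were highest in mature dendritic-like, endothelial-like and T-like cells. These dendritic cells, marked by Ccr7 and Fscn1, have taken up antigen and carry it to lymph nodes. H2-Q4 averaged 195 ± 61.8 CPM in mature dendritic-like cells (SD, n = 4 libraries), 1.82 log2 units above the other classes (SE 0.20, edgeR adjusted p = 2.87e-11). Endothelial-like cells followed with 178 ± 28.0 CPM (SD, n = 4), and the ranges of these classes overlapped. H2-Q6 had its highest mean in endothelial-like cells, 224 ± 29.1 CPM, next to 211 ± 69.9 CPM in mature dendritic-like cells (SD, n = 4 each), again with overlapping ranges. H2-Q7 averaged 516 ± 176 CPM in regulatory T-like cells, 477 ± 71.6 CPM in mature dendritic-like cells and 375 ± 43.9 CPM in CD8 T-like cells (SD, n = 4 each). It was 1.51 log2 units above the other classes in regulatory T-like cells (SE 0.15, edgeR adjusted p = 5.76e-13). Its top rank there came from the PD-L1 KO libraries, with means of 659 CPM in regulatory T-like and 533 CPM in mature dendritic-like cells. In WT libraries these means were 374 and 420 CPM. H2-Q7 was also the one member called higher in NK-like cells, by 0.50 (SE 0.14, edgeR adjusted p = 0.00280). For all 3 genes each class overlapped the next in the order of means, with 1 exception: H2-Q7 in nonclassical monocyte-like cells (96.60 to 118 CPM over 4 libraries) lay barely above type 2 dendritic-like cells (47.6 to 96.59 CPM).

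The same 3 genes were lowest in lung phagocytes. H2-Q7 averaged 31.8 ± 8.4 CPM in classical monocyte-like cells (SD, n = 4), 2.56 log2 units below the other classes (log2 difference -2.56, SE 0.22, edgeR adjusted p = 1.04e-15). H2-Q6 averaged 18.6 ± 4.7 CPM there (SD, n = 4; log2 difference -2.25, SE 0.26, edgeR adjusted p = 7.88e-11). H2-Q4 was lowest in alveolar macrophage-like cells, at 26.7 ± 4.2 CPM (SD, n = 4; log2 difference -1.50, SE 0.14). H2-Q6 alone of the 3 was called lower in neutrophil-like cells, at 19.5 ± 5.6 CPM (SD, n = 4; log2 difference -1.38, edgeR adjusted p = 3.98e-07). H2-Q4 and H2-Q7 had differences of 0.20 and 0.22 in that class and were not called.

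The T-region genes had separate patterns. H2-T22 was highest in T-like cells: 207 ± 119 CPM in regulatory T-like, 152 ± 26.9 CPM in CD8 T-like and 146 ± 20.7 CPM in CD4 T-like cells (SD, n = 4 each). Its differences from the other classes were 1.28, 1.08 and 1.01 log2 units in these 3 classes, all called. The regulatory T-like mean of H2-T22 was 305 CPM in PD-L1 KO libraries and 110 CPM in WT libraries. In WT libraries its means in CD8 T-like (137 CPM), CD4 T-like (132 CPM) and endothelial-like cells (123 CPM) lay above that value. Its lowest mean was in neutrophil-like cells, at 30.9 ± 3.7 CPM (SD, n = 4; log2 difference -0.57, edgeR adjusted p = 0.0106).

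H2-T23 was highest in plasmacytoid dendritic-like cells, the type that makes most interferon-alpha. Its level there was 599 and 555 CPM in PD-L1 KO libraries and 425 and 222 CPM in WT libraries, 1.05 log2 units above the other classes (SE 0.17, edgeR adjusted p = 5.44e-07). Both PD-L1 KO values lay above both WT values, but these classes held 23 and 29 PD-L1 KO cells and 13 and 7 WT cells, too few for a test between groups. The share of all genes that did so was not computed for this class. H2-T23 was also called higher in neutrophil-like cells, by 0.87 (SE 0.13, edgeR adjusted p = 4.05e-08), where the other 6 members were not. Its CPM there was not high among the classes, at 211 ± 30.1 CPM (SD, n = 4), rank 8 in the order of class means. That call thus rests on the fitted difference and does not mark neutrophil-like cells as rich in H2-T23. H2-T23 was called lower in alveolar macrophage-like cells (log2 difference -1.43, SE 0.14) and in NK-like cells (log2 difference -0.91, SE 0.17). NK-like cells hold the receptors of Qa-1: Klrd1, which encodes CD94, stood at 934 and 1073 CPM in PD-L1 KO libraries and 992 and 911 CPM in WT libraries. Klrc1, which encodes the inhibitory NKG2A chain, stood there at 178 and 158 CPM in PD-L1 KO libraries and 201 and 135 CPM in WT libraries, and the groups overlapped for both genes.

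The highest mean of H2-M3, 90.03 ± 22.7 CPM (SD, n = 4), was in plasmacytoid dendritic-like cells, 1.02 log2 units above the other classes (SE 0.26, edgeR adjusted p = 0.00201). That call was lost without PD-L1 KO 1 (log2 difference 0.71, edgeR adjusted p = 0.183). Its lowest mean was in neutrophil-like cells, at 6.2 ± 2.3 CPM (SD, n = 4), 1.92 log2 units below the other classes (log2 difference -1.92, SE 0.28, edgeR adjusted p = 2.27e-08). The neutrophil-like range (3.8 to 8.6 CPM) did not overlap that of the next class, alveolar macrophage-like cells (18.5 to 29.4 CPM).

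H2-M2 was the most narrowly distributed member. In mature dendritic-like cells it stood at 1228 and 447 CPM in PD-L1 KO libraries and at 431 and 400 CPM in WT libraries. PD-L1 KO 1 was high and the other 3 libraries lay close together. The range of this class (400 to 1228 CPM) did not overlap that of the next class, C1q macrophage-like cells, at 8.2 and 10.7 CPM in PD-L1 KO libraries and 5.5 and 2.4 CPM in WT libraries. No UMI of H2-M2 was found in alveolar macrophage-like, classical monocyte-like, type 2 dendritic-like, plasmacytoid dendritic-like, CD8 T-like, CD4 T-like, regulatory T-like or B-like cells. Among 645 B-like cells, with a median of 2794 UMIs, that count of 0 allows a share of cells with a UMI of up to 0.465%, for counting error only. Of 49 mature dendritic-like cells, with a median of 8523 UMIs, 28 held at least 1 H2-M2 UMI. Per library these were 10 of 12 and 7 of 18 cells in PD-L1 KO libraries and 7 of 12 and 4 of 7 cells in WT libraries. Single cells held up to 34 and 25 UMIs in PD-L1 KO libraries and up to 26 and 19 in WT libraries.

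**Figure D2:**
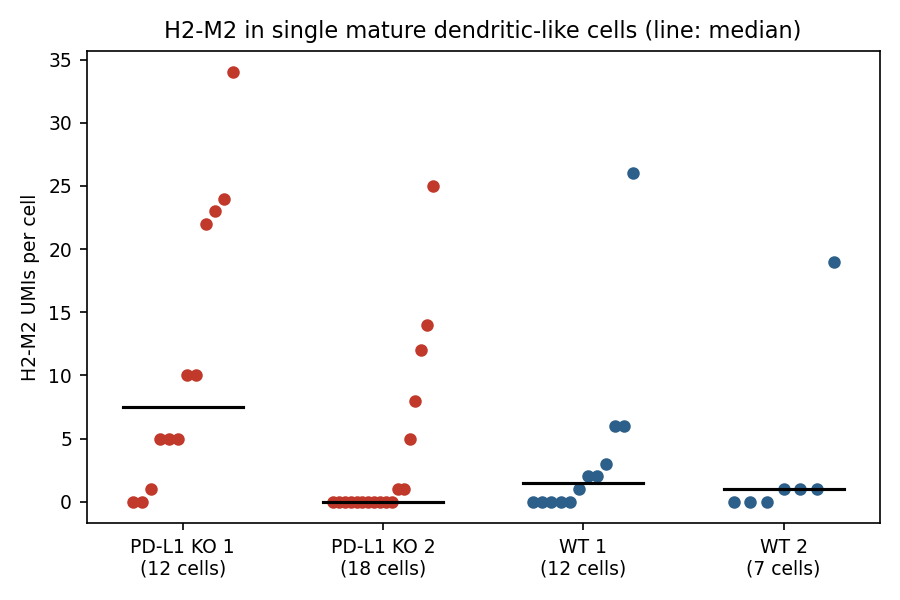
H2-M2 UMIs in each mature dendritic-like cell (y axis), by library, with a line at the median. Medians were 7.5 and 0 in PD-L1 KO libraries and 1.5 and 1 in WT libraries, and single cells reached 34.

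Of the 541 H2-M2 UMIs in all kept cells, 273 came from mature dendritic-like cells and 212 from the cells of mixed lineage that were left out of the classes. The 273 were 139 and 66 in PD-L1 KO libraries and 46 and 22 in WT libraries. The 212 were 55 and 32 in PD-L1 KO libraries and 51 and 74 in WT libraries. In C1q macrophage-like cells the 32 UMIs came from 13 of 390 cells, with up to 8 in a cell. Cells that met no class's markers gave 14 UMIs, 13 of them from a single WT 1 cell. No other class gave more than 4.

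Likeness to other genes was measured by Pearson correlation of log2(CPM + 1) over the 15 class means, among 12567 genes with at least 100 UMIs. The points share libraries and depth, and the values are descriptions. The 3 Q genes were most alike among the members, with r of 0.89 for H2-Q4 and H2-Q6, 0.88 for H2-Q4 and H2-Q7 and 0.86 for H2-Q6 and H2-Q7. The Q4 and Q6 patterns also ran close to that of H2-K1, a classical heavy chain (r = 0.89 and 0.93), and those of H2-Q4 and H2-Q7 to Gbp4, an interferon-induced GTPase (r = 0.89 and 0.83). The other genes among the 5 nearest were Ccser2 for H2-Q4, Nsmce1, Thap12 and Prdm11 for H2-Q6, and Gm11127 and Crem for H2-Q7. H2-T23 had weaker neighbours, led by Usp18 (r = 0.80) and Ly6a (r = 0.77), both interferon-induced genes, and then St8sia4, Sh3bp4 and Tspan13 (r = 0.77 to 0.75). H2-M2 ran with Bcl2l14 (r = 0.90), Il12b (r = 0.90), which encodes a subunit of interleukin-12, Hhip (r = 0.90), Zmynd15 (r = 0.89), itself a marker of the mature dendritic gate, and Relb (r = 0.87). H2-T22 was nearest to Mturn, Tmem191c, Nipsnap1, Donson and AI480526 (r = 0.89 to 0.86), and H2-M3 to Tmem242, Psmf1, Fam96b, Mrps34 and Mrpl54 (r = 0.93 to 0.89). H2-T22 and H2-M2 were the least alike pair of members (r = -0.07).

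The study's design sets lungs seeded with PD-L1 KO cells against lungs seeded with WT cells. Summed over all kept cells, the T and M genes were higher in PD-L1 KO libraries, but none of the 7 passed the adjusted threshold. H2-T23 stood at 232 and 206 CPM in PD-L1 KO libraries and at 161 and 176 CPM in WT libraries (log2 difference 0.45, SE 0.11, edgeR adjusted p = 0.751). H2-T22 stood at 98.2 and 85.2 CPM in PD-L1 KO libraries and at 70.5 and 72.5 CPM in WT libraries (log2 difference 0.42, SE 0.11, edgeR adjusted p = 0.751). For both genes the groups did not overlap. H2-M3 stood at 46.0 and 39.3 CPM in PD-L1 KO libraries and at 33.9 and 36.6 CPM in WT libraries (log2 difference 0.34, SE 0.11). H2-M2 stood at 11.5 and 7.2 CPM in PD-L1 KO libraries and at 6.8 and 5.4 CPM in WT libraries (log2 difference 0.67, SE 0.29). The M genes did not overlap between groups either, though the lower PD-L1 KO value of H2-M2 lay close to WT 1. The 3 Q genes overlapped between groups, with log2 differences of -0.02 (H2-Q4), 0.03 (H2-Q6) and 0.14 (H2-Q7).

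**Figure D3:**
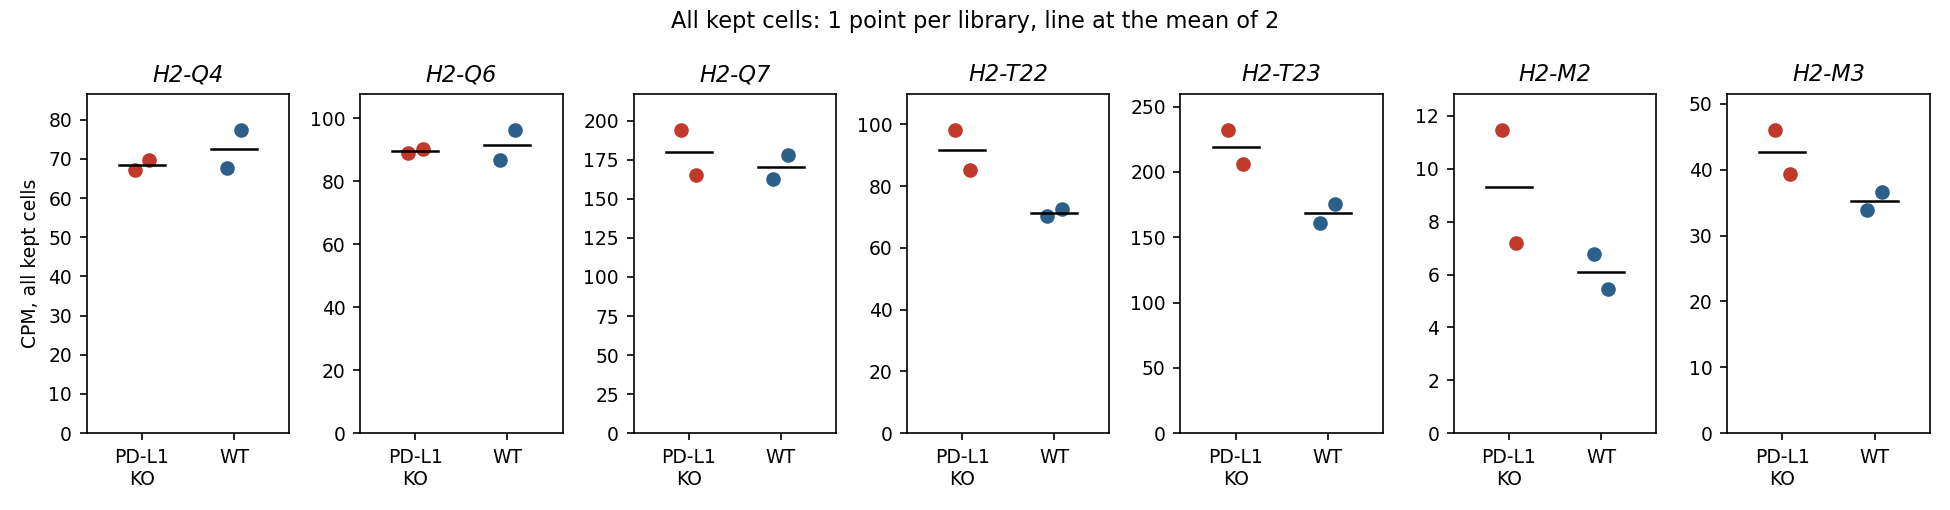
CPM of each gene summed over all kept cells (y axis from 0), 1 point per library, with PD-L1 KO left of WT and a line at the mean of each 2 libraries. H2-T22, H2-T23, H2-M2 and H2-M3 do not overlap between the groups, and the 3 Q genes do.

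Thus 4 of 7 members lay higher in both PD-L1 KO libraries than in both WT libraries, where 14.9% of the 13990 genes tested did so. At an unadjusted p under 0.05 stood 3 of 7 members (H2-T22, H2-T23 and H2-M3) and 3.87% of all genes, 541 in number. By edgeR 0 genes of any kind passed the adjusted threshold in this fit, and by DESeq2 15 did (0.107%), none of them a member. Without WT 1, H2-T22 and H2-T23 were called (log2 differences 0.46 and 0.44, edgeR adjusted p = 0.0385 and 0.0389), but so were 2258 of 14527 genes in that fit. Without each of the other libraries neither was called, at differences of 0.33 to 0.51 for H2-T22 and 0.37 to 0.52 for H2-T23. A sum over all cells mixes the make-up of a library with the level per cell, which cannot be told apart in it.

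In alveolar macrophage-like cells, the resident phagocytes of the airspaces, H2-T23 was higher in PD-L1 KO libraries, the one call of a member between the groups in any cell class. It stood at 136 and 107 CPM in PD-L1 KO libraries (363 and 248 UMIs from 210 and 223 cells) and at 70.7 and 47.0 CPM in WT libraries (232 and 94 UMIs from 324 and 185 cells). Both PD-L1 KO libraries lay above both WT libraries, and their 95% Poisson intervals, which cover counting error only, did not overlap (lowest PD-L1 KO bound 94.3 CPM, highest WT bound 80.4 CPM). The log2 difference was 1.04 (SE 0.18, edgeR adjusted p = 0.0417; DESeq2 adjusted p = 0.00673). In this fit 41 of 9438 genes were called, 0.434%, of which 39 were higher in PD-L1 KO libraries (0.413%). The adjustment covers the genes of a fit and not the number of cell classes tested.

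H2-Q7 stood at 101 and 73.5 CPM in PD-L1 KO libraries and at 53.9 and 40.5 CPM in WT libraries, a log2 difference of 0.89 (SE 0.18) that did not pass (edgeR adjusted p = 0.0679). H2-Q6 stood at 46.1 and 41.1 CPM in PD-L1 KO libraries and at 27.4 and 19.98 CPM in WT libraries (log2 difference 0.87, SE 0.18, edgeR adjusted p = 0.0708). Neither gene overlapped between the groups. H2-Q4 (log2 difference 0.38), H2-T22 (0.47) and H2-M3 (0.36) were not called, and of these H2-T22 overlapped between groups. H2-M2 had no UMI in this class. Of the 6 members tested, 5 lay higher in both PD-L1 KO libraries than in both WT libraries, where 18.4% of genes did.

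Classical monocyte markers moved with these differences. Summed over the 5 markers, all detected in every library, they stood at 84.7 and 69.6 CPM in alveolar macrophage-like cells of PD-L1 KO libraries and at 22.9 and 21.0 CPM in those of WT libraries. A UMI of any of the 5 was held by 25.7% and 21.97% of the cells in PD-L1 KO libraries and by 10.2% and 10.8% in WT libraries. With those cells left out, H2-T23 kept 134 and 102 CPM in PD-L1 KO libraries and 68.3 and 46.6 CPM in WT libraries, and remained called (log2 difference 1.01, edgeR adjusted p = 0.0193). H2-Q7 was then called as well (log2 difference 0.97, edgeR adjusted p = 0.0292), and H2-Q6 was not (log2 difference 0.92, edgeR adjusted p = 0.0638). This selection was chosen after seeing the data and drops only cells in which a marker was detected. The part of cells with undetected monocyte markers was not tested. The summed 7 markers of C1q macrophages stood at 548 and 471 CPM in PD-L1 KO libraries and at 401 and 424 CPM in WT libraries, and their part in the result was not tested. The summed alveolar macrophage markers stood at 7691 and 8091 CPM in PD-L1 KO libraries and at 7863 and 7332 CPM in WT libraries. The H2-T23 call was lost without TMM scaling (edgeR adjusted p = 0.0544), with a stricter filter on cells (0.0612) and with classes taken from Leiden clusters (0.0900), at log2 differences of 1.01, 1.06 and 1.05. With the stricter filter H2-Q7 was the one member called (log2 difference 1.27, edgeR adjusted p = 0.0296). In the main cell selection the H2-T23 call held with each library left out in turn, at log2 differences of 0.81 to 1.39. H2-Q7 was also called with each library left out (0.63 to 1.13), H2-Q6 without WT 1 (1.14), PD-L1 KO 1 (0.77) or PD-L1 KO 2 (0.94), and H2-T22 without WT 1 (0.95) or PD-L1 KO 2 (0.70). More genes of every kind were called in these fits, 225 of 9677 without WT 1, 135 of 9845 without WT 2, 212 of 9635 without PD-L1 KO 1 and 299 of 9851 without PD-L1 KO 2.

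**Figure D4:**
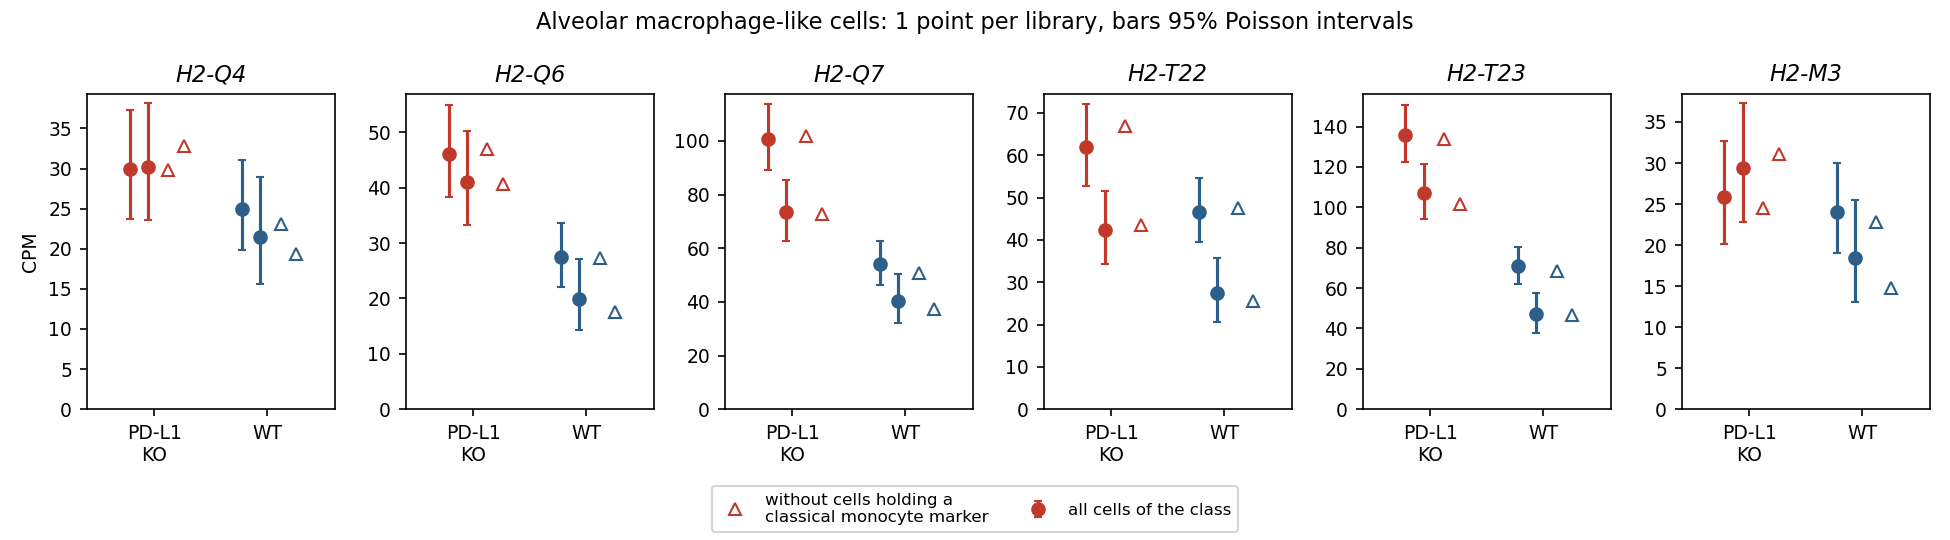
CPM in alveolar macrophage-like cells of the 6 members with counts there (y axis from 0), with PD-L1 KO left of WT. Circles are libraries with 95% Poisson intervals, and triangles are the same libraries without cells holding a classical monocyte marker; H2-T23 stands at 136 and 107 CPM in PD-L1 KO libraries and at 70.7 and 47.0 CPM in WT libraries.

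C1q macrophage-like cells, the interstitial and tumour-associated macrophage type, gave differences of 0.93 and 1.01 in the T genes without a call. H2-T23 stood at 335 and 257 CPM in PD-L1 KO libraries and at 166 and 149 CPM in WT libraries (log2 difference 0.93, SE 0.25, edgeR adjusted p = 0.689). H2-T22 stood at 123 and 84.3 CPM in PD-L1 KO libraries and at 60.2 and 40.1 CPM in WT libraries (log2 difference 1.01, SE 0.30, edgeR adjusted p = 0.708). The groups did not overlap for either gene, and these sums came from 128 and 111 PD-L1 KO cells and 84 and 67 WT cells. The Q genes H2-Q6 and H2-Q7 and H2-M3 had differences of 0.39, 0.47 and 0.46, and H2-Q4 one of -0.17. In this fit 0 of 8076 genes were called by edgeR, 5 by DESeq2 (0.0619%), and 532 had an unadjusted p under 0.05 (6.59%). Of the 6 members tested, 5 lay higher in both PD-L1 KO libraries than in both WT libraries, against 17.4% of genes.

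In dendritic-like cells of the 3 conventional kinds together, all 7 members were higher in PD-L1 KO libraries without a call. H2-M2 stood at 273 and 106 CPM in PD-L1 KO libraries and at 67.7 and 34.1 CPM in WT libraries (log2 difference 1.84, SE 0.48, edgeR adjusted p = 0.788). The cells of mixed lineage, left out here, held 55 and 32 H2-M2 UMIs in PD-L1 KO libraries and 51 and 74 in WT libraries. Their part in this difference was not tested. All 7 members lay higher in both PD-L1 KO libraries than in both WT libraries, against 19.2% of 6328 genes, and none was called, where 0.0158% of genes were. H2-T22 stood at 72.3 and 84.4 CPM in PD-L1 KO libraries and at 47.1 and 35.6 CPM in WT libraries (log2 difference 0.89, SE 0.28). The share of mature cells moved with these values: 25.5% and 31.6% of dendritic-like cells in PD-L1 KO libraries and 19.4% and 12.3% in WT libraries. Without the mature cells the differences were 0.01 for H2-Q4, 0.35 for H2-Q6, -0.03 for H2-Q7, 0.54 for H2-T22, 0.34 for H2-T23 and 0.54 for H2-M3, none called. H2-M2 then had too few counts to be tested. Without PD-L1 KO 2 the H2-M2 difference in all dendritic-like cells was called (log2 difference 2.39, edgeR adjusted p = 1.62e-07), along with 70 of 7025 genes. Without PD-L1 KO 1 it was 1.01 (edgeR adjusted p = 0.284), without WT 1 2.40 and without WT 2 1.44, none of them called.

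Regulatory T-like cells held 31 and 29 cells in PD-L1 KO libraries and 29 and 29 in WT libraries. H2-T22 stood there at 270 and 340 CPM in PD-L1 KO libraries (40 and 53 UMIs) and at 77.8 and 142 CPM in WT libraries (11 and 19 UMIs). The groups did not overlap, and the log2 difference was 1.46 (SE 0.35, edgeR adjusted p = 0.235). H2-T23 stood at 303 and 404 CPM in PD-L1 KO libraries and at 120 and 209 CPM in WT libraries (log2 difference 1.10, SE 0.33, edgeR adjusted p = 0.340). H2-Q7 stood at 587 and 732 CPM in PD-L1 KO libraries and at 396 and 351 CPM in WT libraries (log2 difference 0.81, SE 0.24, edgeR adjusted p = 0.326). Of the 5 members tested, all 5 lay higher in both PD-L1 KO libraries than in both WT libraries, against 19.6% of 2487 genes, and 0.201% of genes were called. Without PD-L1 KO 1, H2-T22, H2-T23 and H2-Q7 were called (log2 differences 1.66, 1.33 and 1.00, edgeR adjusted p = 0.000563, 0.00658 and 0.0385), along with 68 of 2925 genes. Without each of the other libraries none was called, at differences of 1.07 to 1.94 for H2-T22, 0.72 to 1.53 for H2-T23 and 0.62 to 0.87 for H2-Q7, with adjusted p up to 0.862.

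The remaining classes gave smaller or mixed values. In NK-like cells H2-T23 stood at 178 and 145 CPM in PD-L1 KO libraries and at 97.6 and 114 CPM in WT libraries (log2 difference 0.64, SE 0.23, edgeR adjusted p = 0.592). Nonclassical monocyte-like cells ran the other way for H2-Q6, which stood at 38.6 and 44.1 CPM in PD-L1 KO libraries and at 91.1 and 69.1 CPM in WT libraries (log2 difference -0.92, SE 0.34, edgeR adjusted p = 0.995). H2-T22 stood there at 84.5 and 69.9 CPM in PD-L1 KO libraries and at 64.3 and 45.3 CPM in WT libraries (log2 difference 0.55, SE 0.32). The groups did not overlap for these 3 pairs of gene and class. In NK-like cells 17% of all genes lay higher in both PD-L1 KO libraries than in both WT libraries, and in nonclassical monocyte-like cells 14.4% lay higher and 18.8% lower. In neutrophil-like, classical monocyte-like, CD8 T-like, CD4 T-like, B-like and endothelial-like cells every tested member had a log2 difference between -0.27 and 0.38, and none was called. In neutrophil-like cells 0 of 5 members lay higher in both PD-L1 KO libraries (10.4% of genes did), in classical monocyte-like cells 1 of 5 (17.4%). In CD8 T-like, CD4 T-like and B-like cells 2 of 6 each did (21%, 23.5% and 15%), in endothelial-like cells 0 of 6 (18%). Lower in both were H2-T23 in CD4 T-like cells (17.7% of genes) and H2-Q6 and H2-Q7 in endothelial-like cells (18%). Of all genes 0.102%, 0%, 0.0166%, 0.105%, 0.162% and 0.0947% were called in these 6 classes, and 0.313% and 0.137% in NK-like and nonclassical monocyte-like cells. In classical monocyte-like cells, where edgeR called 0 genes, 264 had an unadjusted p under 0.05 (5.3%) and DESeq2 called 1 (0.0201%). H2-M2 passed the filter on low counts in all kept cells and in dendritic-like cells alone, H2-M3 not in neutrophil-like, regulatory T-like or NK-like cells, and H2-Q6 not in classical monocyte-like cells.

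**Figure D5:**
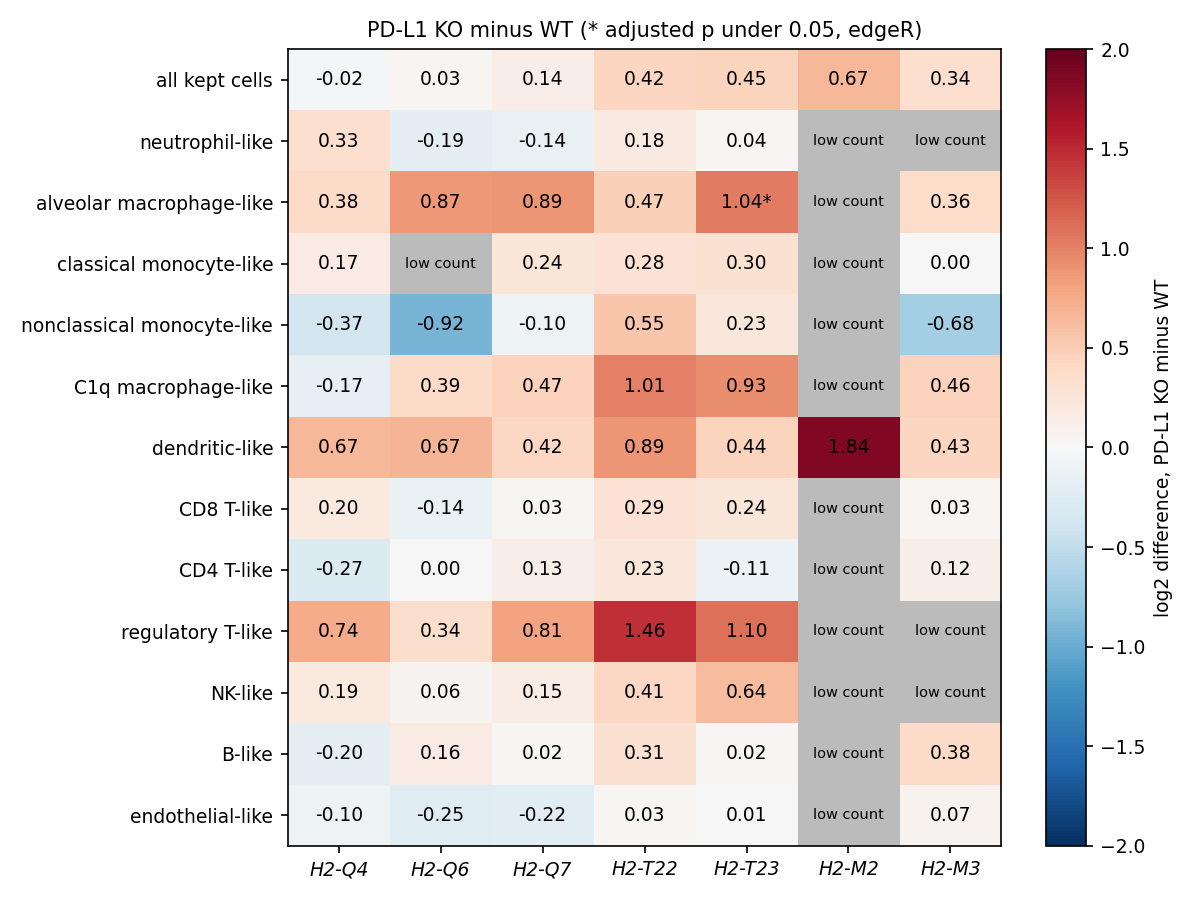
Log2 difference, PD-L1 KO minus WT, of each gene (columns) in all kept cells and in 12 cell classes (rows), with grey where counts were too low to test. An asterisk marks the 1 call at an adjusted p under 0.05, H2-T23 in alveolar macrophage-like cells (1.04).

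Whether the difference between groups itself varied by class was tested with an interaction term over the 12 classes and 9289 genes. No member was called for any class, where 0.0323% of genes were called for alveolar macrophage-like cells, 0.0108% each for C1q macrophage-like and CD4 T-like cells, and 0% for the other classes. The smallest p was that of H2-Q6 in alveolar macrophage-like cells, whose difference exceeded the mean of the other classes by 0.91 log2 units (SE 0.24, edgeR adjusted p = 0.356). H2-T23 in the same class exceeded it by 0.68 (SE 0.20, edgeR adjusted p = 0.571). The call in alveolar macrophage-like cells is thus not shown to be particular to them.

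The partners of the class I pathway were read from lists of 17 classical heavy chain and peptide-loading genes and 7 interferon signal factors. In alveolar macrophage-like cells 4 of the 17 were called higher and none lower, where 0.413% of all genes were called higher, and the list median was 0.49 against 0.00 over all genes tested. The 4 were B2m, the shared light chain (log2 difference 0.56, edgeR adjusted p = 0.0166), H2-D1 (0.49, edgeR adjusted p = 0.0417), the immunoproteasome subunit Psmb8 (0.67, edgeR adjusted p = 0.0368) and the proteasome activator Psme2 (0.49, edgeR adjusted p = 0.0483). H2-K1 (0.61), the peptide transporter Tap1 (0.96) and Nlrc5 (1.32) did not pass there. Irf7, an interferon-induced transcription factor, did not pass there either (2.00, edgeR adjusted p = 0.0588). In all kept cells none of either list was called, with medians of 0.31 and 0.35 against -0.02 over all genes. Irf7, at 152 and 187 CPM in PD-L1 KO libraries and 104 and 74.3 CPM in WT libraries, did not overlap between groups there (log2 difference 0.98, SE 0.24). Of the list of 5 receptor genes, Klrc1, Klrc2, Klrd1, Cd8a and Cd8b1, none was called in any class, and the list's median in all kept cells was 0.11. Cd8a and Cd8b1 also served to define the CD8 T-like class.

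Of a list of 12 other class Ib genes, 6 had enough counts to test in all kept cells, none was called and their median log2 difference was 0.18. H2-T10, also on the list, had no entry in the count tables. H2-Q10, for which regulatory T-like cells had the highest mean, had 16.2 and 14.3 CPM in PD-L1 KO libraries and 13.4 and 14.6 CPM in WT libraries. Cd1d1, which presents lipids to NKT cells, was highest in mature dendritic-like cells (89.8 CPM, mean of 4 libraries), and Mr1, which presents vitamin metabolites to MAIT cells, in alveolar macrophage-like cells (19.7 CPM). H2-M9, H2-M10.1 and H2-M11 had no UMI in any kept cell.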

How the data were processed

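Single-cell 3′ RNA counts were deposited by the authors as whole-number UMI counts per gene and barcode, with no normalization, per the file headers and the values. Per the submitters' processing notes, the tools were Cell Ranger 3.1.0 and STAR and the build mm10; no annotation release was found. Everything after the counts was computed here. Barcodes with under 200 genes or over 10% mitochondrial UMIs, and the barcodes with the highest Scrublet scores (0.8% per 1000 barcodes, scanpy 1.11.5), were left out. Cells were assigned to the class with the largest share of its markers detected, above a minimum per class of 2 to 5 markers; T-like cells were split by Cd8a, Cd8b1, Cd4, Foxp3 and other regulatory T markers; cells over the minimum of more than 1 lineage were left unassigned, and the minimums were set after the data were seen. Counts were summed per library and class, because cells are not replicates. Classes with at least 20 cells in every library were tested by edgeR 4.0.16 (quasi-likelihood, filterByExpr, TMM, Benjamini-Hochberg adjustment over all genes of a fit, threshold 0.05; R 4.3.3), PD-L1 KO minus WT. Class levels used classes with at least 5 cells per library. DESeq2 1.42.0, scaling, cell and gene filters, gates, thinning and left-out libraries were alternatives. An exact permutation of 2 against 2 libraries cannot go below 0.333. The scripts were tested on simulated data. All 7 members are named, with the 5 genes most alike to each; the members, markers and gene lists were chosen with earlier results of these data known. Promoters are from RefSeq (GRCm38.p6), with an entry for each of the 7. A result for 1 interferon factor is not reported here.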

Additional observations from a re-analysis of the deposited data

How the results depend on the processing

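Of the log2 differences and class contrasts of single members recomputed under the alternatives, 564 kept their direction and their side of the threshold, 23 newly passed it, 5 lost it and 10 changed sign; the cause was not tested. The count of members called in alveolar macrophage-like cells, 1, was 0 without TMM scaling, 0 with Leiden cluster classes, 3 without a filter on low counts, 3 after thinning to the smallest library, 2 without cells holding a classical monocyte marker (chosen after seeing the data) and 2 to 4 with each library left out. Without a filter on low counts 1 member was called in C1q macrophage-like cells (H2-T22, log2 difference 1.07) and 1 in dendritic-like cells (H2-M2, 1.83). With each library left out, 0 to 2 members were called in all kept cells, 0 to 1 in dendritic-like and 0 to 3 in regulatory T-like cells, in fits that called up to 2258 of 14527, 70 of 7025 and 68 of 2925 genes; the lone library of a group is then assumed to vary like the other group. No value that changed sign was called. In all kept cells H2-Q6 was -0.0321 without TMM scaling, and H2-Q4 was 0.00410 without a filter on cells, 0.17 over gated leukocytes alone (chosen after seeing the data) and -0.0579 to 0.0344 with each library left out. In C1q macrophage-like cells H2-Q4 was 0.0420 with the strict filter on cells, 0.0290 with Leiden classes, 0.000713 after thinning and -0.41 to 0.0563 with each library left out. In dendritic-like cells H2-Q7 was -0.0330 without mature cells (chosen after seeing the data). By Spearman correlation 0 to 3 of the 5 genes most alike to each member were the same. Mature, type 2 and plasmacytoid dendritic-like and regulatory T-like cells numbered 7 to 31 per library, which limits their values.

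The labels number the libraries 1 and 2 in both groups without saying that a number pairs them, and deviations of same-numbered libraries had a correlation of -0.290 over 13990 genes. With the number as a replicate block, 0 members were called in alveolar macrophage-like cells (H2-T23 log2 difference 1.07, edgeR adjusted p = 0.105), nor was any of the 9438 genes tested there.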
